A study of Mus musculus with 12 samples.

Results

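The activin, inhibin and follistatin genes are described here in mouse livers enlarged by YAP or by MYC. The set holds 10 genes of the 48576 listed, chosen by symbol: the ligand subunits Inha, Inhba, Inhbb, Inhbc and Inhbe, the ligand-binding proteins Fst and Fstl3, and the receptors Acvr2a, Acvr2b and Acvr1c. All 10 were in the count tables and 9 were tested, since Acvr1c did not pass the filter on low counts. RNA was sequenced from 12 livers in 5 groups. Mice induced for YAP carried Col-TRE-YAPS127A, a doxycycline-driven YAP mutant that escapes inhibitory phosphorylation, and Rosa26-LSL-rtTA. These mice received AAV-TBG-Cre between 8 and 10 weeks of age. In it the hepatocyte TBG promoter drives Cre, which turns on rtTA. Doxycycline then ran for 2 weeks (n = 2) or 4 weeks (n = 3). YAP controls had this genotype and the same listed age at AAV, 8 to 10 weeks, without induction of the transgene (n = 2). MYC livers were LAP-tTA; TRE-MYC, in which a liver driver turns on MYC once doxycycline is removed, here from pregnant mothers at about embryonic day 8, and were collected 4 weeks after birth (n = 3). MYC controls were LAP-tTA alone on this doxycycline schedule (n = 2). The MYC model therefore compares young livers and the YAP model adult ones, and both YAP times share the same 2 controls.

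Activins are dimers of inhibin β subunits, encoded by Inhba (βA), Inhbb (βB), Inhbc (βC) and Inhbe (βE). The βC and βE subunits are made mainly in the liver. A β subunit joined to the α subunit, from Inha, makes an inhibin, which occupies activin receptors without signalling. Activin binds a type II receptor (ACVR2A or ACVR2B), which recruits a type I receptor (ACVR1B or ACVR1C), and the complex phosphorylates SMAD2 and SMAD3. Follistatin and the product of Fstl3 bind activins and keep them from their receptors. In rats, activin A restrains hepatocyte growth, and follistatin given to the animal enlarges the liver, which is why activins are described as a brake on liver size.

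The libraries held between 12511170 and 17690798 counts. Levels are CPM, the counts of a gene relative to library size, with library sizes scaled by TMM, an edgeR method that centres the typical gene. TMM factors were as high as 1.35 in a YAP 4-week liver and as low as 0.742 in a YAP control, and the median log2 fold change of all tested genes over controls was 0.10, 0.18 and 0.02 (2 weeks, 4 weeks and MYC) with TMM and 0.64, 0.91 and 0.43 with total-count scaling. The labels call the cells hepatocytes and the RNA was of whole liver: the summed level of 8 hepatocyte markers was 70289 to 89084 CPM at 2 weeks of YAP, 34408 to 73095 CPM at 4 weeks, 80508 to 95095 CPM in YAP controls, 30900 to 55588 CPM in MYC livers and 109092 to 112453 CPM in MYC controls, with none of the 8 at 0 in any library. In bulk RNA, fewer cells of a type and less RNA per cell cannot be told apart. Xist and Y-linked genes gave a male pattern in YAP 2-week replicate 1, both YAP controls and all 5 libraries of the MYC model, and a female pattern in YAP 2-week replicate 2 and all 3 YAP 4-week libraries. All 4-week livers thus differ from both YAP controls in this pattern, and a term for it in the fit rests on the pair of 2-week livers. Counts under the symbol Myc were 31.4, 23.2 and 22.2 CPM in MYC livers, against 15.5 and 6.71 CPM in MYC controls. Myc was higher still in YAP-induced livers, with 105 and 107 CPM at 2 weeks and 117, 64.8 and 111 CPM at 4 weeks. YAP controls had 53.2 and 8.17 CPM of it. Yap1 had 80.1 and 87.4 CPM at 2 weeks and 85.8, 65.6 and 69.0 CPM at 4 weeks, against 86.5 and 81.2 CPM in YAP controls. In MYC livers Yap1 had 51.0, 45.7 and 57.8 CPM, against 73.7 and 73.4 CPM in MYC controls. Whether reads of either transgene count under these symbols was not tested. The labels do not say whether a mouse gave more than 1 library, so p-values measure the spread between these libraries.

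Markers of other cells moved with the groups. Among 8 cholangiocyte markers the summed level was 572 to 1204 CPM at 2 weeks and 409 to 3112 CPM at 4 weeks, against 108 to 118 CPM in YAP controls, and 3 and 5 of the 7 tested markers rose. In the MYC model that sum was 7.15 to 10.8 CPM in MYC livers and 13.6 to 18.7 CPM in MYC controls. Macrophage markers summed to 1289 to 1652 CPM at 2 weeks, 451 to 923 CPM at 4 weeks, 261 to 263 CPM in YAP controls, 643 to 880 CPM in MYC livers and 263 CPM in both MYC controls. Of these 8 markers 6, 4 and 4 rose at 2 weeks, at 4 weeks and in MYC livers. Skeletal muscle markers stood at 308 and 359 CPM in the 2 livers with 2 weeks of YAP, and between 0.795 and 19.5 CPM in all other libraries. Of 5 to 8 tested stellate, endothelial, mesothelial and lymphocyte markers, at most 3 of a list passed in any comparison with controls, as did 1 of 2 adipocyte markers at 2 weeks. The part of these cells in the results below was not tested.

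The stretches before the start of Inhbb, Fstl3 and Inhbc are shown because Inhbb and Fstl3 were called higher at both YAP times, and Inhbc was called lower at 4 weeks of YAP and in MYC livers. Each runs 5′ to 3′ from 250 to 11 bases before the RefSeq start, on build GRCm38.p6, with CG pairs in capitals. Inhbb lies at chr1:119422259-119422498 on the minus strand, Fstl3 at chr10:79777024-79777263 on the plus strand and Inhbc at chr10:127370559-127370798 on the minus strand.
Inhbb: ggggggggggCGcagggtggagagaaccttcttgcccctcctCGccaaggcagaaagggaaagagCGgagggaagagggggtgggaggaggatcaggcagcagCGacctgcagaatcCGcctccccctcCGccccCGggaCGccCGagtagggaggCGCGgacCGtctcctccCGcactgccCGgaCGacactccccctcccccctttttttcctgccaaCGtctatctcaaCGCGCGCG
Fstl3: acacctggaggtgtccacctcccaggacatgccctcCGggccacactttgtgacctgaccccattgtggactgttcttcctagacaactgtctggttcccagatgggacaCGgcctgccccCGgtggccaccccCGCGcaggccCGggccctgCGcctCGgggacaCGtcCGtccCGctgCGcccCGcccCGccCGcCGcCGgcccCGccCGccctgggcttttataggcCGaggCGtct
Inhbc: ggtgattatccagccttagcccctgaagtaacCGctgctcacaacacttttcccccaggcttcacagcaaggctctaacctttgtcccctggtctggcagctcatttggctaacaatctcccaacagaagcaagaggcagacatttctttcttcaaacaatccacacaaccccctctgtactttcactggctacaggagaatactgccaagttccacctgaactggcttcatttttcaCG
The Inhbb stretch held 20 CG pairs and 68.8% G or C, and the Fstl3 stretch held 21 and 71.2%. The Inhbc stretch held 2 CG pairs and 49.2% G or C, and that of Inhba held 3 and 42.1%. Inhbe, lower in all 3 comparisons with controls, held 6 CG pairs and 58.8%. Acvr2b, called lower at 2 weeks of YAP, held 23 CG pairs, and Acvr2a, not called, held 49, so CG-rich stretches were not limited to the members that rose. Over all 32851 mouse promoters of this table the medians were 5 CG pairs and 52.1%. RefSeq entries matched 9 of the 10 members, all but Fst. The letters GGAATG, which TEAD factors, the DNA-binding partners of YAP, are known to bind, were in none of the 9 on either strand and in 12.6% of all promoters. The E-box CACGTG, to which MYC binds, was in none of the 9 and in 6.02% of all. The AP-1 letters TGANTCA and the SMAD letters GTCTAGAC were in none of the 9 either, and in 6.75% and 0.167% of all. Letters that match the C/EBP motif TTGCNNAA were found in Inhba alone, against 9.56% of all promoters. Inhbe held the stress-response letters TGATGNAA on the opposite strand, starting 181 bases before its RefSeq start, and 3.45% of all promoters held them. They are in capitals within 30 bases at chr10:127352011-127352040, read on the minus strand.
Inhbe: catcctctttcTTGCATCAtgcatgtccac
The RefSeq start of Inhbe lies 2563 bases downstream of the GENCODE start of this gene, so this stretch is inside the longer gene model. A match of letters is a description and not a binding site.

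Inhbe, the βE subunit, was lower than in controls at both YAP times and in MYC livers, by 3.77-fold, 5.34-fold and 3.21-fold. Inhbb, the βB subunit, was 6.19-fold higher at 2 weeks of YAP and 5.64-fold higher at 4 weeks, and Fstl3 rose at both, from at most 2 counts in a control. In MYC livers Inhbc and Inhba fell and Inha rose. At each YAP time 4 of the 9 tested members passed the threshold of an adjusted p under 0.05, 2 higher and 2 lower. Of all 17964 tested genes 27.8% passed at 2 weeks (15.1% higher, 12.7% lower) and 33.8% at 4 weeks (18.1% higher, 15.7% lower). In MYC livers 4 of 9 passed, 1 higher and 3 lower, where 18.3% of all genes passed (9.76% higher, 8.56% lower). All libraries of the 2 groups lay apart for 6 of 9 members at 2 weeks, 7 at 4 weeks and 6 in MYC livers. Over all genes this was so for 66.6% at 2 weeks (36.6% higher, 30% lower), 59.9% at 4 weeks (33.5% and 26.4%) and 53% in MYC livers (26.8% and 26.2%). With total-count scaling the members split into 2 higher and 1 lower at 2 weeks, 4 and 1 at 4 weeks, and 1 and 2 in MYC livers. The median log2 fold change of the tested members was 0.23 at 2 weeks, 0.45 at 4 weeks and -0.44 in MYC livers, beside 0.10, 0.18 and 0.02 for all tested genes, and the first was 0 with Inha, almost without counts there, set to no change.

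**Figure D1:**
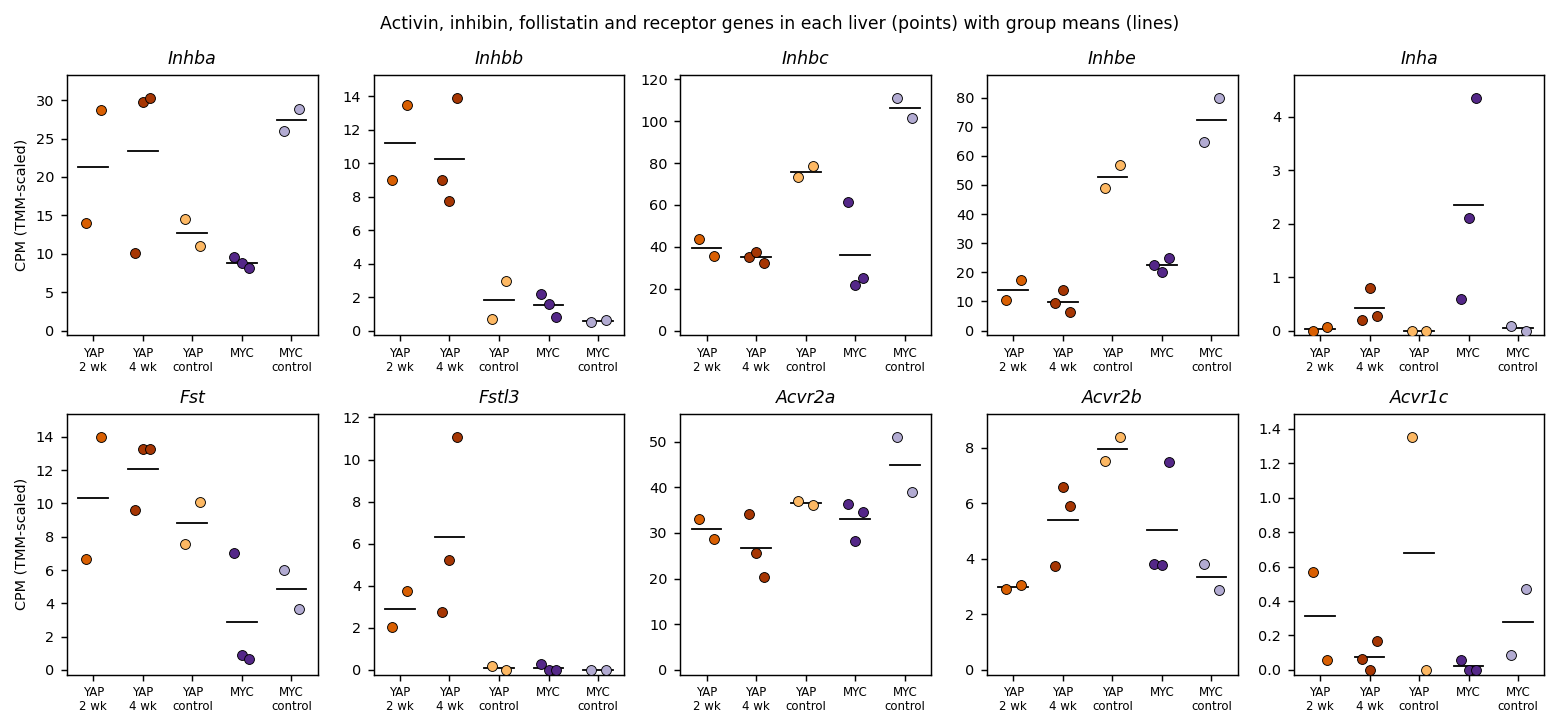
Level of each member in each liver (points, TMM-scaled CPM, linear axes from 0) with group means (lines) for YAP at 2 and 4 weeks, YAP controls, MYC livers and MYC controls. Inhbe lay between 6.45 and 24.8 CPM in all YAP-induced and MYC livers and between 48.9 and 79.9 CPM in the controls, and Fstl3 was at 2.05 CPM or more in the 5 YAP-induced livers and at most 0.298 CPM elsewhere.

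Inhbe (ENSMUSG00000047492.5, chr10:127348857-127354411, minus strand, GRCm38) had 10.6 and 17.3 CPM at 2 weeks and 9.46, 13.8 and 6.45 CPM at 4 weeks, against 48.9 and 56.8 CPM in YAP controls. All 5 induced livers were below both controls. The log2 fold change was -1.91 ± 0.32 (SE) at 2 weeks (adjusted p = 0.00171) and -2.42 ± 0.29 at 4 weeks (adjusted p = 0.000204). In MYC livers Inhbe had 22.6, 20.1 and 24.8 CPM, against 64.8 and 79.9 CPM in MYC controls, again without overlap. That log2 fold change was -1.68 ± 0.28 (adjusted p = 0.00297). This call passed in each of the 10, 11 and 11 alternatives run for the 3 comparisons, with adjusted p of at most 0.0161, 0.0268 and 0.0387.

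Inhbc (ENSMUSG00000025405.9, chr10:127356322-127370431, minus strand), the βC subunit, is the upstream neighbour of Inhbe, and 1910 bases separate both genes. It had 43.7 and 35.5 CPM at 2 weeks and 34.9, 37.6 and 32.5 CPM at 4 weeks, against 73.3 and 78.4 CPM in YAP controls. All 5 induced livers were lower than both controls, with little spread within a group. The log2 fold change was -0.94 ± 0.40 at 2 weeks (adjusted p = 0.102) and -1.12 ± 0.35 at 4 weeks (adjusted p = 0.0329). The call at 4 weeks was lost without any of the 5 libraries (adjusted p 0.0603 to 0.134), and with total-count scaling it was -0.38 (adjusted p = 0.281). It was also lost with the sex term (-0.82, adjusted p = 0.577), with no low-count filter (0.0944) and with the replicate block (0.0611), so that it passed in 2 of 11 alternatives. In MYC livers Inhbc had 61.2, 21.7 and 25.0 CPM, against 111 and 102 CPM in MYC controls. Replicate 1 lay between the other MYC livers and the controls. The log2 fold change was -1.56 ± 0.35 (adjusted p = 0.0137). Without MYC control replicate 1 or 2 the adjusted p was 0.0922 or 0.0686, and in a fit of these 2 groups alone it was 0.0778.

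Inhbb (ENSMUSG00000037035.5, chr1:119415465-119422248, minus strand) had 9.0 and 13.5 CPM at 2 weeks and 9.02, 7.74 and 13.9 CPM at 4 weeks, against 0.676 and 2.97 CPM in YAP controls. The lowest induced liver was above the higher control. The log2 fold change was 2.63 ± 0.62 at 2 weeks (adjusted p = 0.0101) and 2.50 ± 0.59 at 4 weeks (adjusted p = 0.00860). Without YAP control replicate 1, the lower control, these fell short of the threshold at 1.92 (adjusted p = 0.0644) and 1.79 (adjusted p = 0.0632), as did 2 weeks without its replicate 2 (2.31, adjusted p = 0.0602). With a term for the sex pattern they were 2.31 (adjusted p = 0.0570) and 1.92 (adjusted p = 0.347). MYC livers had 2.20, 1.61 and 0.813 CPM, against 0.530 and 0.624 CPM in MYC controls. All 3 lay above both controls, but the log2 fold change, 1.40 ± 0.66, missed the threshold (adjusted p = 0.166).

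Inhba (ENSMUSG00000041324.14, chr13:16011851-16031621, plus strand), the βA subunit, had 14 and 28.8 CPM at 2 weeks and 10.1, 29.7 and 30.3 CPM at 4 weeks, against 14.5 and 11 CPM in YAP controls. One liver of each induced group lay at the level of the controls. The log2 fold change was 0.74 ± 0.47 at 2 weeks (adjusted p = 0.264) and 0.87 ± 0.44 at 4 weeks (adjusted p = 0.147). Without YAP 4-week replicate 1 it was 1.23 and passed (adjusted p = 0.00777), and with the sex term it was -0.17 (adjusted p = 0.944). The libraries with the 3 highest values among YAP-model livers all had the female pattern, as did the 4-week liver at 10.1 CPM. Cholangiocyte markers were also lowest in that liver, at 409 CPM, against 3049 and 3112 CPM in the other 4-week livers. In MYC livers Inhba had 9.59, 8.76 and 8.18 CPM, against 26.0 and 28.8 CPM in MYC controls. The groups did not overlap and each varied little, and the log2 fold change was -1.63 ± 0.42 (adjusted p = 0.0229). The call was lost without MYC replicate 2 or 3 (adjusted p = 0.0740 and 0.0692), without MYC control replicate 1 or 2 (0.101 and 0.123) with total-count scaling (0.0895) and with no low-count filter (0.0550), with log2 fold changes between -1.71 and -1.23.

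Inha (ENSMUSG00000032968.4, chr1:75507077-75510366, plus strand), the α subunit of inhibins, was near the limit of detection in most livers. MYC livers held 10, 30 and 75 counts, or 0.596, 2.1 and 4.35 CPM, against 1 and 0 counts in MYC controls. The ratio of summed counts, scaled by library size, was 57.5 (95% exact counting interval 10.1 to 2290), and the rise passed (adjusted p = 0.0236). It did not pass without MYC replicate 2 or 3 (adjusted p = 0.0545 and 0.0653), without MYC control replicate 1 or 2 (0.104 and 0.159), or with the replicate block (0.0526). There were 0 and 1 counts at 2 weeks of YAP and 3, 14 and 5 at 4 weeks, against 0 in both YAP controls. A count of 0 allows up to 3 counts, or 0.318 CPM in the shallower control. The 4-week mean of Inha, 0.424 CPM, was at least 1.39-fold the mean floor of the YAP controls (adjusted p = 0.0721). This bound rested on replicate 2, at 0.803 CPM. Replicates 1 and 3, at 0.191 and 0.278 CPM, lay below the floors of both controls (0.290 and 0.318 CPM).

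Per kilobase of exon, Inhbc was the leading β subunit in every liver, with 63.6% to 84.0% of the summed level of the 4. Inhbb held 7.09% and 10.5% of that sum at 2 weeks and 8.73%, 6.22% and 12.2% at 4 weeks, against 0.311% and 1.26% in YAP controls. Inhbe held 6.70% and 10.9% at 2 weeks and 7.33%, 8.84% and 4.54% at 4 weeks, against 18% and 19.3% in YAP controls. Inhba held 7.33% and 14.99% at 2 weeks and 6.51%, 15.9% and 17.8% at 4 weeks, against 4.44% and 3.12% in YAP controls. In all 5 induced livers the shares of Inhbb and Inhba were above, and that of Inhbe below, those of both controls. In MYC livers Inhbe held 10.9%, 22.0% and 23.9%, against 16.0% and 20.2% in MYC controls, so that the groups overlapped. The ratio of Inhbb to Inhbe counts, which needs no scaling between libraries, was 0.847 and 0.776 at 2 weeks and 0.953, 0.562 and 2.16 at 4 weeks, against 0.0138 and 0.0523 in YAP controls. It was 0.0974, 0.0801 and 0.0327 in MYC livers, against 0.00819 and 0.00780 in MYC controls. The summed level of the 4 was 29.8 and 30.02 CPM per kb at 2 weeks and 24.3, 29.3 and 26.7 at 4 weeks, against 51.1 and 55.3 in YAP controls. It was 39.2, 17.2 and 19.6 CPM per kb in MYC livers, against 76.2 and 74.3 in MYC controls. These sums and shares were described and not tested. They rest on the longer gene model of Inhbe, and a shorter length for this gene would raise its share.

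**Figure D2:**
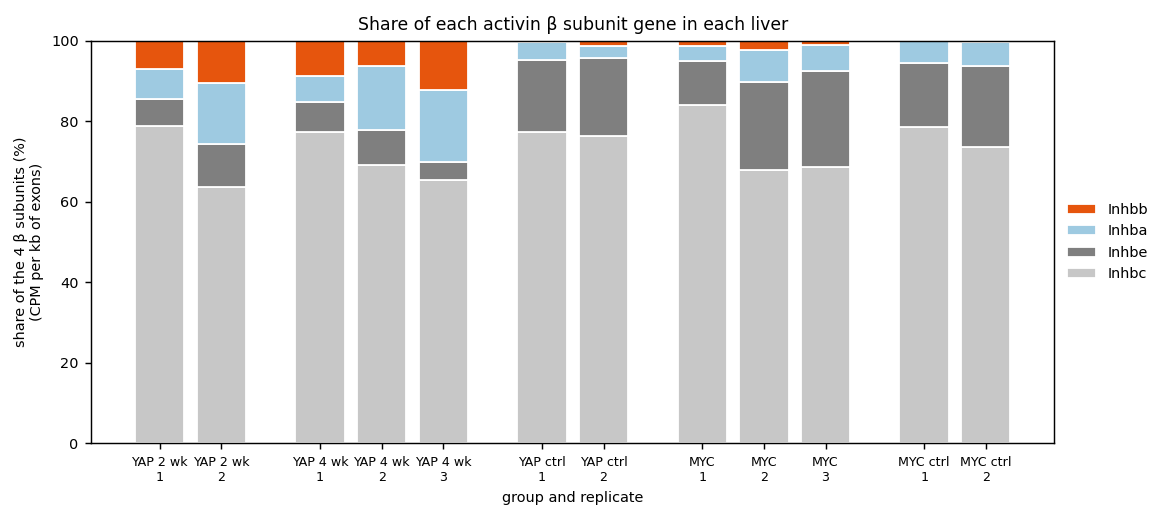
Share of each β subunit gene in the summed level of the 4, from CPM per kb of exons (percent, stacked bars, 1 bar per liver; groups from left: YAP 2 weeks, YAP 4 weeks, YAP controls, MYC, MYC controls). Inhbb reached 6.22% to 12.2% in the 5 YAP-induced livers and at most 2.21% in the other 7.

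Of the binding proteins, Fstl3 (ENSMUSG00000020325.10, chr10:79777272-79782630, plus strand), a follistatin-like inhibitor, had 29 and 63 counts at 2 weeks and 43, 91 and 199 at 4 weeks, against 2 and 0 in YAP controls. This was 2.05 and 3.77 CPM and 2.73, 5.22 and 11.1 CPM, against 0.193 CPM in YAP control replicate 1 and no counts in replicate 2. All induced livers stood well above both controls. The ratio of summed counts was 29.5 (95% exact counting interval 7.94 to 247) at 2 weeks and 64.4 (17.7 to 534) at 4 weeks, and the rise passed at both times (adjusted p = 0.0267 and 0.00750). At 2 weeks it was lost without replicate 2 (adjusted p = 0.106), YAP control replicate 1 (0.0739) or YAP control replicate 2 (0.143), and at 4 weeks without YAP control replicate 2 (0.0635). With the sex term the adjusted p was 0.102 and 0.236. MYC livers had 5, 0 and 0 counts and both MYC controls 0, too few for a fold. The gene shares 1157 exon bases with Prss57 on the opposite strand, which had 0 to 11 counts in the libraries of the YAP model, and the strand setting of the counts is not given in the sources used here.

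Fst (ENSMUSG00000021765.9, chr13:114452290-114458951, minus strand), follistatin itself, had 6.66 and 14 CPM at 2 weeks and 9.59, 13.2 and 13.3 CPM at 4 weeks, against 7.54 and 10.1 CPM in YAP controls. The groups overlapped, and neither log2 fold change, 0.23 ± 0.87 or 0.45 ± 0.80, reached the threshold (adjusted p = 0.870 and 0.692). MYC livers had 7.03, 0.911 and 0.638 CPM, against 6.01 and 3.66 CPM in MYC controls. Replicate 1 was above both controls and the other livers were far below them. The log2 fold change was -0.75 ± 0.82 (adjusted p = 0.576), and -2.64 without MYC replicate 1 (adjusted p = 0.00314).

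The type II receptor Acvr2a (ENSMUSG00000052155.5, chr2:48814109-48903269, plus strand) had 33.2 and 28.8 CPM at 2 weeks and 34.1, 25.6 and 20.3 CPM at 4 weeks, against 36.9 and 36.1 CPM in YAP controls. All induced livers were below the controls, and the log2 fold changes were -0.24 ± 0.24 (adjusted p = 0.494) and -0.45 ± 0.22 (adjusted p = 0.129). With total-count scaling both turned positive, at 0.29 and 0.26, and without YAP 4-week replicate 1 the second was -0.67 and passed (adjusted p = 0.0224). MYC livers had 36.3, 28.3 and 34.6 CPM, against 51.0 and 38.9 CPM in MYC controls, at -0.44 ± 0.22 (adjusted p = 0.182). Acvr2a shares 446 exon bases with Orc4 on the opposite strand, which had 172 to 434 counts.

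The other type II receptor, Acvr2b (ENSMUSG00000061393.14, chr9:119402118-119434995, plus strand), had 2.90 and 3.05 CPM at 2 weeks and 3.75, 6.60 and 5.89 CPM at 4 weeks, against 7.54 and 8.38 CPM in YAP controls. The 2-week livers were the lowest and the 4-week livers lay between. At 2 weeks the log2 fold change was -1.42 ± 0.43 (adjusted p = 0.0292). This call was lost without any of the 4 libraries (adjusted p 0.0800 to 0.121), with total-count scaling (0.177) and with the sex term (0.116). At 4 weeks it was -0.55 ± 0.37 (adjusted p = 0.274), and 0.20 with total-count scaling. MYC livers had 3.81, 3.79 and 7.49 CPM, against 3.8 and 2.88 CPM in MYC controls, at 0.59 ± 0.39 (adjusted p = 0.324).

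The type I receptor Acvr1c (ENSMUSG00000026834.13, chr2:58267453-58357895, minus strand), known as ALK7, was barely counted and was not tested. It had 8 and 1 counts at 2 weeks and 1, 0 and 3 at 4 weeks, against 14 and 0 in YAP controls. MYC livers had 1, 0 and 0 counts, against 1 and 6 in MYC controls. The counts varied as much within a group as between groups.

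**Figure D3:**
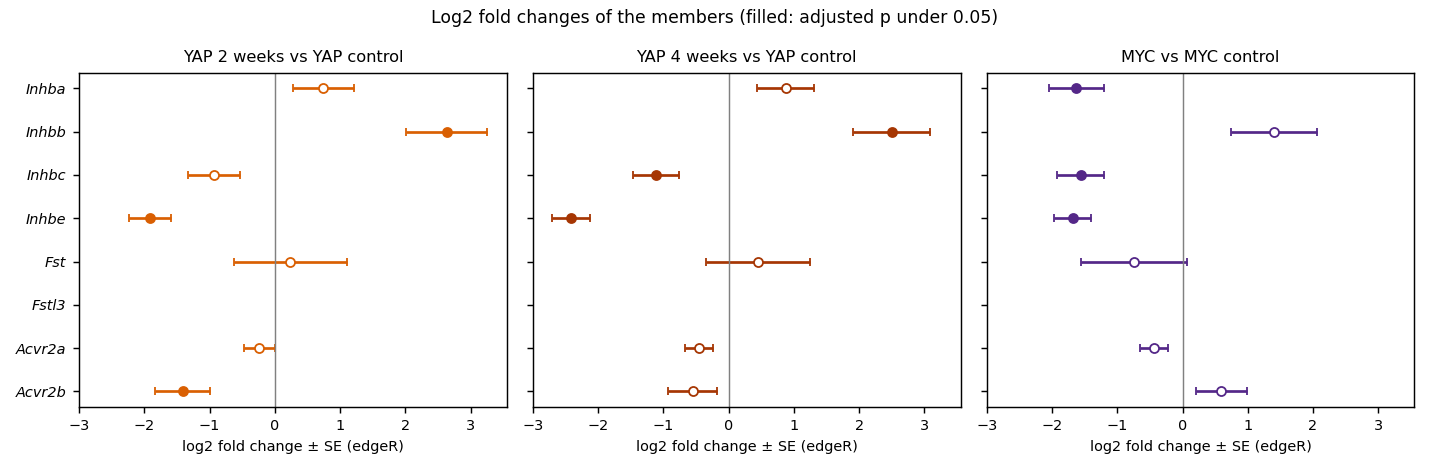
Log2 fold change (x axis, bars are the SE from edgeR) of the members in YAP 2 weeks, YAP 4 weeks and MYC livers, each over its controls; filled points have an adjusted p under 0.05. Inhbe was below 0 and filled in all 3 panels, Inhbb was filled in the 2 YAP panels, and Inhba was filled in the MYC panel alone; Inha and Fstl3 have no point, since a control group held at most 2 counts of them.

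Per kilobase of exon, the order of levels in YAP controls was Inhbc (40.8 ± 1.93 CPM per kb, SD, n = 2), Inhbe (9.93 ± 1.05), Acvr2a (6.42 ± 0.104), Acvr2b (2.03 ± 0.152), Inhba (2.00 ± 0.383), Fst (1.92 ± 0.392), Inhbb (0.429 ± 0.381), Acvr1c (0.0728 ± 0.103) and Fstl3 (0.0395 ± 0.0559), with Inha at 0. By this length Acvr2b, Inhba and Fst did not differ beyond their spread there, nor did Inhbb, Acvr1c and Fstl3. Inhbe was measured over its longer gene model (5319 bases). Its RefSeq start lies 2563 bases downstream of the GENCODE start. A length from there was not tried and would raise the level of Inhbe. The place of Fst depended on the length used. With lengths of coding transcripts, chosen after seeing the data, Fst was at 3.11 ± 0.635 in YAP controls. It then came before Acvr2b (2.23 ± 0.167) and Inhba (2.00 ± 0.383). At 4 weeks of YAP, Inhbc (18.8 ± 1.37, n = 3) and Acvr2a (4.69 ± 1.23) came before Inhba (3.66 ± 1.80), Fst (2.62 ± 0.463), Fstl3 (2.59 ± 1.75), Inhbb (2.40 ± 0.764), Inhbe (1.86 ± 0.691) and Acvr2b (1.38 ± 0.378). Neighbours from Acvr2a on lay within each other's spread. With lengths of coding transcripts Fst was at 4.25 ± 0.750 at 4 weeks and came before Inhba. In MYC livers the order was Inhbc (19.3 ± 11.8, n = 3), Acvr2a (5.82 ± 0.749), Inhbe (4.24 ± 0.444), Inha (1.59 ± 1.28), Inhba (1.38 ± 0.110) and Acvr2b (1.28 ± 0.542), with the rest below 1.

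Between 4 and 2 weeks of YAP no member was called by edgeR or DESeq2, where 0.0612% of all genes were called by edgeR, all lower at 4 weeks. For 20.9% of all genes the libraries of the 2 times lay apart (10.8% higher and 10.1% lower), as they did for Inha and Acvr2b. An unadjusted p under 0.05 was found for 2 of 9 tested members and for 1250 of all 17964 tested genes. The 2 members were Inha (22 summed counts at 4 weeks, 1 at 2 weeks, adjusted p = 0.702) and Acvr2b (0.86 ± 0.39, adjusted p = 0.716). Fstl3 differed by 1.12 ± 0.85 (adjusted p = 0.822). Whether MYC and 4 weeks of YAP moved a gene unequally, each over its own controls, was tested directly, and 7.48% of all genes passed (3.15% higher for MYC, 4.33% lower). Inhba was the only member of 9 that did, at -2.50 ± 0.61 (adjusted p = 0.0339), so that it was lower in MYC livers relative to their controls than in YAP livers relative to theirs. That call was kept in 5 of 16 alternatives. Leaving out single libraries gave -2.86 to -2.27 and kept it without YAP 4-week replicate 1 or MYC replicate 1 and lost it without any other of the 10 (adjusted p 0.0598 to 0.136), and the sex term gave -1.46 (adjusted p = 0.462). For the others the difference was -1.10 ± 0.89 for Inhbb (adjusted p = 0.492), -0.45 ± 0.51 for Inhbc (0.642), 0.73 ± 0.40 for Inhbe (0.294), -1.20 ± 1.15 for Fst (0.573) and 1.15 ± 0.54 for Acvr2b (0.220). Without MYC replicate 1 the difference passed for Inhbc (-1.07, adjusted p = 0.0149) and Fst (-3.09, adjusted p = 0.0115).

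A list of 44 other genes of the pathway held 39 tested ones. At 2 weeks of YAP 5 rose and 2 fell, at 4 weeks 8 rose and 5 fell, and in MYC livers 5 rose and 7 fell. As shares these lie below, near and above those of all genes (27.8%, 33.8% and 18.3%). The median log2 fold change was 0.29, 0.34 and -0.17, beside 0.10, 0.18 and 0.02 for all genes. It was 0.22, 0.33 and -0.17 with genes without any control count set to their bound or to no change. With total-count scaling the calls were 18 higher and 0 lower at 2 weeks, 22 and 2 at 4 weeks, and 8 and 1 in MYC livers.

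The signal carriers differed among themselves in the YAP livers. Smad3 had 49.6 and 56.5 CPM at 2 weeks and 68.8, 67.4 and 69.6 CPM at 4 weeks, against 30.5 and 32.6 CPM in YAP controls. Every induced liver was above both controls, at log2 fold changes of 0.75 ± 0.16 (adjusted p = 0.00563; 0.0515 without 2-week replicate 2) and 1.12 ± 0.15 (adjusted p = 0.000367). In MYC livers Smad3 was at 0.04 ± 0.14 (adjusted p = 0.896), with 26.7, 24.4 and 31.4 CPM, against 26.4 and 27.2 CPM in MYC controls. Smad2 did not pass in any of the 3 (0.21, 0.10 and 0.00, adjusted p = 0.435, 0.682 and 0.999), nor did Smad4, the shared partner of both (0.19, 0.38 and -0.24, adjusted p = 0.419, 0.0762 and 0.294). With total-count scaling Smad2 and Smad4 passed at both YAP times, at 0.72 to 1.13.

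Skil, Ski and Bambi rose at both YAP times, whereas the ubiquitin ligase genes Smurf1 (0.22 and 0.05, adjusted p = 0.505 and 0.866) and Smurf2 (0.29 and 0.05, adjusted p = 0.315 and 0.859) and the ligand inhibitor Lefty1 (-0.29 and -0.56, adjusted p = 0.870 and 0.688) did not pass at either. Skil, which encodes the SMAD repressor SnoN, had 65.3 and 78.4 CPM at 2 weeks and 51.8, 51.0 and 53.2 CPM at 4 weeks, against 28.7 and 36.7 CPM in YAP controls. Its log2 fold change was 1.14 ± 0.17 at 2 weeks (adjusted p = 0.000908) and 0.67 ± 0.16 at 4 weeks (adjusted p = 0.00805), and none of its libraries overlapped with the controls. In MYC livers Skil also rose, by 0.66 ± 0.16 (adjusted p = 0.0156; 0.168 and 0.0681 without MYC control replicate 1 or 2). Ski, a related repressor, rose by 0.92 ± 0.17 at 2 weeks (adjusted p = 0.00282) and 1.04 ± 0.16 at 4 weeks (adjusted p = 0.000836). Bambi, a pseudoreceptor that blocks the type I receptors, had 10.1 and 9.09 CPM at 2 weeks and 13.8, 16.7 and 13.6 CPM at 4 weeks, against 5.51 and 4.24 CPM in YAP controls. It rose by 0.97 ± 0.26 (adjusted p = 0.0187) and 1.59 ± 0.25 (adjusted p = 0.000907), the first lost without 2-week replicate 1 or 2 (0.0786 and 0.0615) or YAP control replicate 2 (0.123), with the sex term (0.0561), with no low-count filter (0.0570) and in a fit of these 2 groups alone (0.0589). The inhibitory SMAD gene Smad7 passed at 2 weeks (1.01 ± 0.33, adjusted p = 0.0416) and not at 4 weeks (0.83 ± 0.31, adjusted p = 0.0557). The 2-week call was lost without 2-week replicate 1 (adjusted p = 0.260) or YAP control replicate 1 or 2 (0.0578 and 0.241). In MYC livers Smad7 was at -0.03 ± 0.30 (adjusted p = 0.966).

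Among receptors, Acvr1b, which encodes the type I receptor ALK4, had 24.5, 29.7 and 27.1 CPM in MYC livers, against 15.6 and 15.2 CPM in MYC controls. All MYC livers were higher, at 0.81 ± 0.22 (adjusted p = 0.0245), a call lost without MYC replicate 2 or 3 (adjusted p = 0.0760 and 0.0526), MYC control replicate 1 or 2 (0.146 and 0.152) or with the replicate block (0.0575). At 2 and 4 weeks of YAP it was at -0.43 ± 0.23 and -0.47 ± 0.21 (adjusted p = 0.193 and 0.105), and positive with total-count scaling (0.08 and 0.28). Tgfbr2, the TGF-β type II receptor, rose by 1.01 ± 0.25 in MYC livers (adjusted p = 0.0189), and not past the threshold without MYC replicate 2 (0.0620) or MYC control replicate 1 or 2 (0.0815 and 0.159). Tgfbr3, the inhibin co-receptor betaglycan, did not pass in any comparison (-0.04, -0.71 and -0.89, adjusted p = 0.949, 0.0984 and 0.0668), and passed in MYC livers without replicate 1 (-1.31, adjusted p = 0.00442).

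Mstn, which encodes myostatin, a ligand of the same type II receptors known from muscle, was counted 35, 103 and 167 times in MYC livers, against 0 in both MYC controls. Its mean in MYC livers was at least 25.4-fold the mean floor of the MYC controls (adjusted p = 0.00309). Every MYC liver was above both controls. Skeletal muscle markers summed to 1.25 to 3.83 CPM in MYC livers and 0.795 to 19.5 CPM in MYC controls, with 3 or 4 of 7 at 0 in each MYC liver. Smurf1, a ubiquitin ligase for SMADs and receptors, fell by 0.92 ± 0.21 in MYC livers (adjusted p = 0.0135; 0.167 without MYC control replicate 1, and 0.112 with total-count scaling). Pcsk6, a convertase of TGF-β family precursors, had 59.8, 31.9 and 39.1 CPM at 4 weeks of YAP, against 164 and 179 CPM in YAP controls, and fell by 1.98 ± 0.41 (adjusted p = 0.00544). It was also called lower in MYC livers, at -1.46 ± 0.41 (adjusted p = 0.0349). At 2 weeks of YAP it was at -1.30 ± 0.46 (adjusted p = 0.0606). Chosen after their values were seen, Bmp10 fell by 3.24 ± 0.70 at 4 weeks (adjusted p = 0.00579), and Pmepa1, a SMAD target and feedback inhibitor, had 10.6, 32.9 and 34.4 CPM at 4 weeks, against 3.86 and 9.12 CPM in YAP controls. Bmp10 encodes a ligand made by stellate cells in the liver, and 3 of 8 stellate markers fell at 4 weeks, when their summed level was 145 to 392 CPM, against 488 to 505 CPM in YAP controls. The part of stellate cells in this result was not tested. With the sex term, the 4-week calls of Smad3, Ski, Bambi, Pcsk6 and Bmp10 were lost (adjusted p = 0.113, 0.142, 0.0880, 0.381 and 0.535), and Bmp10 was then at -1.55.

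**Figure D4:**
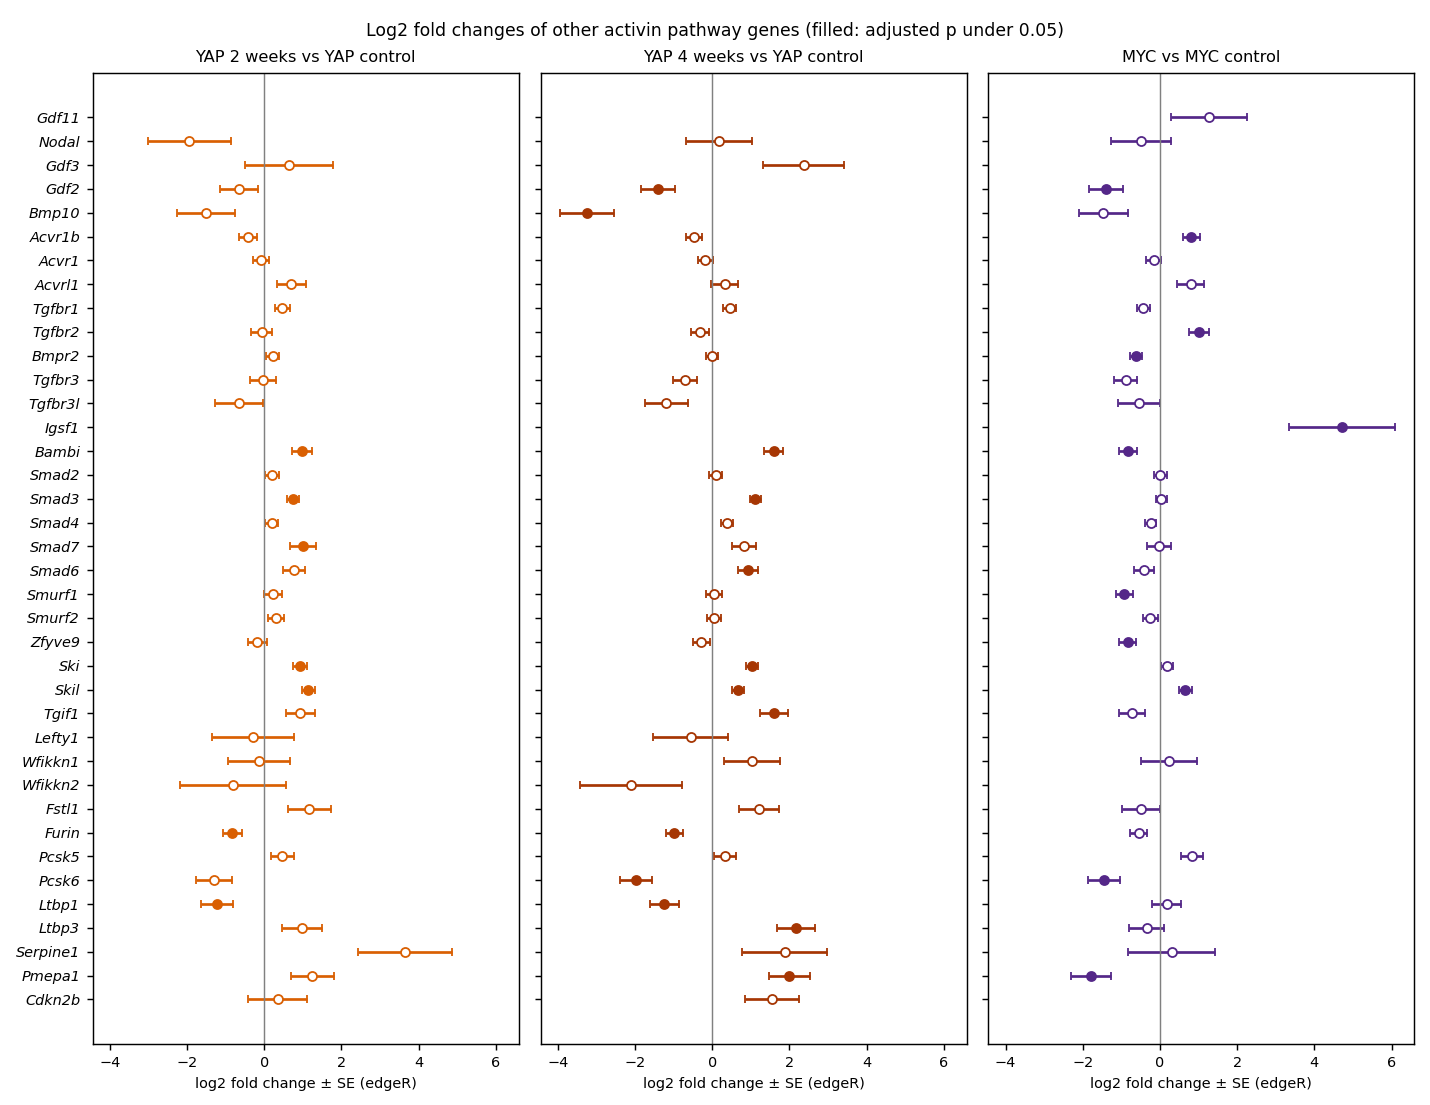
Log2 fold change (x axis, bars are the SE from edgeR) of the other activin pathway genes in YAP 2 weeks, YAP 4 weeks and MYC livers, each over its controls; filled points have an adjusted p under 0.05 and genes with near-zero control counts have no point. Smad3, Ski, Skil and Bambi were above 0 and filled in both YAP panels, and Bambi was below 0 and filled in the MYC panel (-0.82).

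By Pearson correlation of log2 CPM over the 12 libraries, which share groups and scaling, the genes most like Inhbb were Rin3 (0.98), Synpo (0.97) and Il3ra (0.96). Those most like Inhbe were Gopc, Atp6v0a2 and Mfsd4b3 (each 0.96), those most like Inhbc were BC025446 (0.98), Gm27463 (0.97) and D630036G22Rik (0.97), and those most like Inhba were Dlec1 (0.92), Gpc6 (0.91) and Frem1 (0.89). These are descriptions of likeness among the 12 libraries.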

How the data were processed

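Total RNA of mouse liver was sequenced in 12 libraries, here called livers; per the labels' protocols it was extracted with TRIzol and RNeasy columns, DNase-treated and made into libraries with a Nugen Ovation kit. The authors deposited raw read counts per gene symbol. The submitters' processing notes name GRCm38 (mm10) with HISAT2 2.1.0 as well as featureCounts 1.6.3, and also DESeq2 1.20.0 and Trim Galore 0.4.1; annotation release, strand setting and treatment of multiply mapped reads are not given in the sources used here, and reads of opposite-strand genes cannot then be told apart.

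The test was edgeR 4.0.16 under R 4.3.3 (filterByExpr, 17964 genes kept; TMM; robust quasi-likelihood fit with 1 mean per group over all 12 libraries, 7 residual degrees of freedom, common coefficient of variation 31.5%; two-sided; Benjamini-Hochberg over all tested genes, threshold 0.05). The fit was tested on simulated data. Alternatives were DESeq2 1.42.0, total-count scaling, no low-count filter, only the groups compared, a replicate block, a sex-pattern term and leaving out each library. Gene coordinates, exon lengths (union of exons) and overlaps came from GENCODE vM21 on GRCm38 and promoter sequences from RefSeq. Replicates differed by more than counting error (chi-square per degree of freedom 11.2 to 107). Intervals and floors of 3 counts cover counting error only. Correlations used log2 CPM with a prior count of 2.

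The members, lists, tests and alternatives were chosen with earlier results of these data known. All members were named, with 6 set pathway genes (Acvr1b, Smad2, Smad3, Smad4, Smad7, Tgfbr3), up to 4 called pathway genes of smallest p in a comparison, and the 3 genes most correlated with each called member of at least 10 CPM. Replicate numbers did not pair the libraries.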

Additional observations from a re-analysis of the deposited data

Results flagged for a closer look

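The MYC effect differed from the 4-week YAP effect in a direct test for 10 of the genes described here. These were 1 of 9 tested members and 9 of 39 tested pathway genes (2 higher, 7 lower). Of all tested genes 7.48% passed (3.15% higher, 4.33% lower). Among the members the MYC effect differed for Inhba (log2 difference -2.50, adjusted p = 0.0339). Among receptors and co-receptors it was higher for Acvr1b (1.29, adjusted p = 0.0270) and Tgfbr2 (1.32, adjusted p = 0.0415) and lower for Bambi (-2.41, adjusted p = 0.00280). Among SMAD genes and their regulators it was lower for Smad3 (-1.08, adjusted p = 0.0114), Smad6 (-1.33, adjusted p = 0.0483), Ski (-0.86, adjusted p = 0.0382) and Tgif1 (-2.31, adjusted p = 0.0191). Ltbp3 (-2.53, adjusted p = 0.0418), which encodes a latent TGF-β binding protein, and the SMAD target Pmepa1 (-3.79, adjusted p = 0.0154) were lower too. With each single library left out in turn Bambi passed in all 10 fits, whereas Acvr1b passed in 5, Tgfbr2 in 3, Smad3 in 8, Smad6 in 1, Ski in 3, Tgif1 in 7, Ltbp3 in 2 and Pmepa1 in 7. With the sex-pattern term none of the 10 passed (Bambi -2.56, adjusted p = 0.0755).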

How the results depend on the processing

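Inhbe kept its direction and its call in all 3 comparisons with controls under every alternative run; calls of other members that were lost are given with each gene in the report. The replicate block changed few calls: members called were 4, 3, 3, 0 and 0 in the order 2 weeks, 4 weeks, MYC, 4 against 2 weeks and MYC effect minus YAP 4-week effect, where the original fit gave 4, 4, 4, 0 and 1. Deviations of same-numbered libraries correlated at -0.03 to 0.08, so the numbers were not used to pair them. Under the block Smad2 and Smad3 reversed in MYC livers (-0.033 and -0.022).

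The sex term, which rests on the YAP 2-week pair of livers, gave 1 member at 2 weeks and 1 at 4 weeks, 0 in the last contrast, pathway counts of 4, 1 and 0 there, and 2565, 240, 0 and 65 genes in all (2 weeks, 4 weeks, 4 against 2 weeks, last contrast), against 4993, 6073, 11 and 1344. It reversed Fst (-0.40 at 2 weeks, -0.62 at 4), Inhba (-0.17) and Acvr1b (0.13) at 4 weeks. Total-count scaling gave 18 and 24 pathway genes at 2 and 4 weeks, against 7 and 13, and 3 genes in all between 4 and 2 weeks. The calls of all genes split 5228 higher and 979 lower at 2 weeks, 7863 and 897 at 4 weeks and 3277 and 743 in MYC livers, against 2716 and 2277, 3253 and 2820, and 1754 and 1537 with TMM. It reversed Acvr2a (0.29 and 0.26), Acvr1b (0.081 and 0.28) and Tgfbr3 (0.49 and 0.011) at 2 and 4 weeks, Acvr2b at 4 weeks (0.20), and Smad4 (0.17) and Smad7 (0.36) in MYC livers. DESeq2 gave 77 genes between 4 and 2 weeks and 2358 in the last contrast, no low-count filter 42 and only the groups compared 0 between 4 and 2 weeks. No filter left 0 members in the last contrast. The cause of these shifts was not tested.

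Leaving out single libraries gave 1 to 3 members at 2 weeks, 2 to 5 at 4 weeks, 1 to 5 in MYC livers, 0 between 4 and 2 weeks and 0 to 3 in the last contrast. Pathway counts were 3 to 5, 6 to 16, 1 to 12, 0 to 1 and 1 to 11, and counts of all genes 2445 to 3671, 3324 to 6231, 792 to 4192, 1 to 501 (the highest without YAP 4-week replicate 1) and 338 to 1868. It turned the sign of values that had not passed: Fst (-0.40 to 0.68) and Tgfbr3 (-0.22 to 0.18) at 2 weeks and, in MYC livers, Smad2 (-0.12 to 0.14), Smad3 (-0.068 to 0.12) and Smad7 (-0.21 to 0.18). A lone library left in a group was taken to vary like the others. Lengths of coding transcripts, chosen after seeing the data, could not test the β subunit shares. They equal the exon lengths for Inhba (6390 bases), Inhbb (4255), Inhbc (1859) and Inhbe (5319). A shorter length of Inhbe, from its RefSeq start, was not tried. Each group has 2 or 3 livers, and Inha, Fstl3 and Acvr1c had few or no counts in several libraries.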

Other observations

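Some pathway genes near the limit of detection in controls were counted in more of the other livers. Igsf1, which has been described as an inhibin-binding protein, had 25, 116 and 121 counts in MYC livers, against 0 and 5 in MYC controls (adjusted p = 0.0377). It had 10 and 11 counts at 2 weeks of YAP and 1, 33 and 35 at 4 weeks, against 0 and 1 in YAP controls. Neither YAP comparison of Igsf1 passed (adjusted p = 0.204 and 0.0771). Gdf11, a ligand close to myostatin, had a summed 27 counts at 2 weeks and 63 at 4 weeks, against 1 in YAP controls, and did not pass at either time (adjusted p = 0.112 and 0.0541). The ratios of summed counts were 17.3 (95% exact counting interval 2.85 to 709) and 24.4 (4.21 to 977), intervals that cover counting error only.

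MYC replicate 1 lay nearest to the MYC controls among the MYC livers for Inhbc and Gdf2 (17.4 CPM, against 7.36 and 7.37 CPM in the other MYC livers and 29.96 and 26.4 CPM in MYC controls), and had the highest Fst and the lowest Inha of the 3. YAP 4-week replicate 1 lay nearest to the YAP controls for Inhba (10.1 CPM) and Tgif1 (28.4 CPM, against 59.4 and 62.8 CPM in the other 4-week livers and 13.9 and 19.4 CPM in YAP controls), and had the lowest Fstl3 of the 3. Not every member followed this. MYC replicate 1 was the farthest from its controls for Inhbb (2.20 CPM, against 1.61 and 0.813 CPM in the other MYC livers). YAP 4-week replicate 1 was the farthest for Acvr2b (3.75 CPM, against 6.60 and 5.89 CPM in the other 4-week livers).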
